A study of Zea mays with 10 samples.

Results

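The 3 maize genes GPC1, gpc2 and gpc3 encode cytosolic glyceraldehyde-3-phosphate dehydrogenase (GAPDH), and they were represented on a cDNA array of immature maize ears by 19 of its 5400 EST clones. GPC1 had 10 clones, gpc2 had 7 and gpc3 had 2. A clone belonged to the set when the gene symbol of its probe annotation, or a RefSeq synonym of that symbol, was 1 of the 3 names. The 3 genes had been chosen by their mean log2 ratios in an earlier reading of the same arrays, so those ratios are given as a description and without a test. What the earlier reading did not use, the comparison of dye orientations, was tested.

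The arrays compared ears of the inbred lines H99 and B73 with ears of their hybrid, B73xH99 F1, at stage V15, each genotype being a bulk of 10 field-grown individuals. On 5 arrays the hybrid was hybridised against H99 and on 5 against B73, and the hybrid was therefore common to all 10 arrays. In each set, 2 arrays carried the dyes in the reversed orientation (reps 4 and 5) and 3 in the forward orientation (reps 1 to 3), in which the hybrid was labelled with Cy3. Per the design text, each array was a separate labelling from the poly(A) RNA of its genotypes, so the spread between arrays measures labelling and hybridisation and not the spread between plants. The labels name no transgene or treatment.

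Cytosolic GAPDH oxidises glyceraldehyde-3-phosphate with NAD+ in glycolysis, the step at which the pathway first yields a reduced cofactor. It is distinct from the plastid GAPDH of the Calvin cycle, which uses NADPH. In maize the cytosolic enzyme comes from a small gene family: GPC1 and gpc2 code for closely related proteins, while gpc3 belongs to a separate branch known for induction by lack of oxygen. How far a spot made from a clone of 1 of these genes also bound transcripts of another was not tested.

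All values below are log2 ratios of the 2 channels as deposited, averaged over the 3 spots of a clone. L2 is the mean over the 5 H99 arrays and L1 the mean over the 5 B73 arrays. The additive parameter a is (L2 - L1)/2, and the dominance parameter d is the mean of L2 and L1. The study's design text defines the ratio as hybrid over inbred, which makes a positive a mean a higher level in B73 than in H99. The direction could not be settled from the files. Where L2 and L1 have opposite signs, the hybrid lies between the inbreds whichever way the ratio runs. The files hold ratios and no levels, so the order of the 3 genes by abundance cannot be given, and fewer cells of a type cannot be told apart from less RNA per cell.

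Every array's median log2 ratio was within 0.001 of 0, and 0.253% to 2.31% of its spots had no value. Of the 570 values of GAPDH spots, 4 were missing, and each of the 19 clones had a value on all 10 arrays. Over the 5357 clones that were tested, L2 had a median of -0.0021 and an SD between clones of 0.11, and L1 a median of -0.014 and an SD of 0.23. Without levels the tissue could not be checked by its markers. Of 9 symbols of meristem and flower genes searched, kn1, ZAG1 and ZAG3 were on the array, of 7 kernel symbols sh1 was, and of 7 leaf and 4 pollen symbols 0 were. kn1, a meristem homeobox gene with 11 clones, had an L2 of 0.019 and an L1 of -0.034. The floral MADS-box genes, with 1 clone each, had -0.10 and 0.32 (ZAG3) and -0.16 and 0.18 (ZAG1). These signs are opposite to those of GPC1 and gpc2 given below, but the L1 of ZAG1 had an SD of 0.25 over the B73 arrays. sh1 had an L2 of -0.019 and an L1 of 0.019. The part of tissue makeup in the GAPDH values was not tested.

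GPC1 had the widest separation between the inbreds. Its gene mean was 0.12 and 0.094 on the reversed and 0.43, 0.33 and 0.19 on the forward H99 arrays, against -0.17 and -0.17 on the reversed and -0.10, -0.13 and -0.25 on the forward B73 arrays. All 5 H99 arrays were positive, all 5 B73 arrays were negative, and the sets did not overlap. L2 was 0.23 ± 0.14 and L1 was -0.16 ± 0.055 (SD, n = 5 arrays each). The difference of 0.40 between the H99 and the B73 arrays corresponds to 1.32-fold, that is, under the design text's definition, to a lower GPC1 transcript level in H99 than in B73 by this factor.

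For gpc2 the same signs held. Its gene mean was 0.15 and 0.14 on the reversed and 0.31, 0.21 and 0.12 on the forward H99 arrays, against -0.052 and -0.096 on the reversed and -0.14, -0.22 and -0.10 on the forward B73 arrays. Again the 5 H99 arrays were all positive and the 5 B73 arrays all negative. L2 was 0.19 ± 0.079 and L1 was -0.12 ± 0.063 (SD, n = 5 arrays each), a difference of 0.31 or 1.24-fold.

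The anaerobically inducible gene gpc3 stood nearer to 0 on the H99 arrays. Its gene mean was -0.034 and -0.045 on the reversed and 0.0035, -0.012 and 0.016 on the forward H99 arrays, against -0.081 and -0.084 on the reversed and -0.14, -0.12 and -0.18 on the forward B73 arrays. Here 2 H99 arrays were positive and 3 negative, and all 5 B73 arrays were negative and below every H99 array. L2 was -0.014 ± 0.026 and L1 was -0.12 ± 0.043 (SD, n = 5 arrays each), a difference of 0.11 or 1.08-fold.

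**Figure D1:**
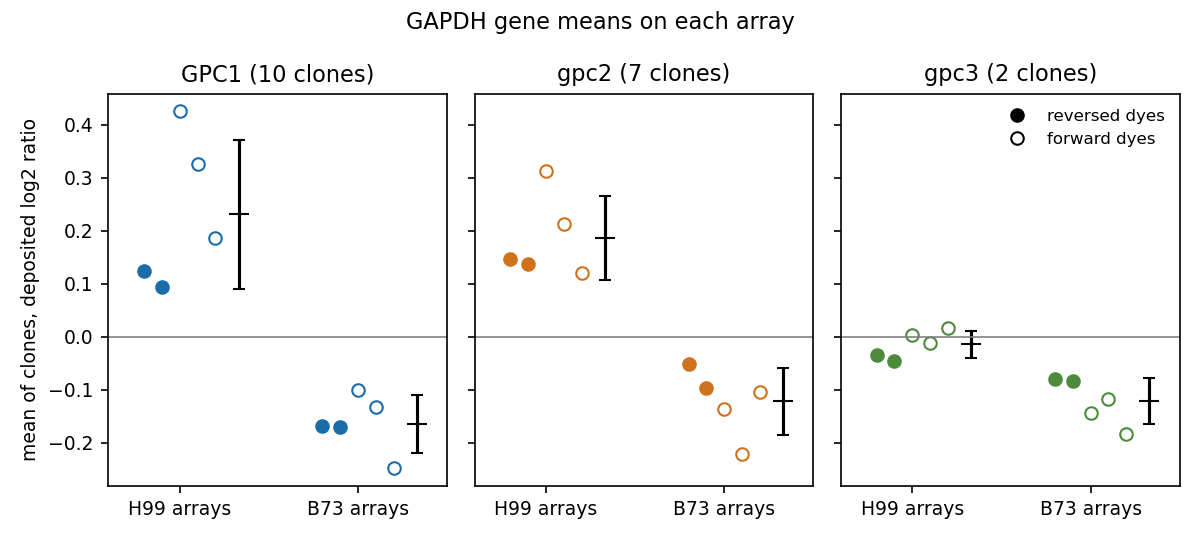
Gene means of the log2 ratio on each of the 10 arrays, 1 panel per gene, with the H99 arrays left of the B73 arrays; filled points are reversed arrays, open points forward arrays, and bars are the mean ± SD over 5 arrays. GPC1 and gpc2 are above 0 on every H99 array and below 0 on every B73 array, whereas gpc3 lies around 0 on the H99 arrays.

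In the order of a, GPC1 came first with 0.20 (SE 0.041), followed by gpc2 with 0.15 (SE 0.038) and gpc3 with 0.054 (SE 0.035). The standard errors are those of limma from a fit to the whole table of gene means. They leave out the spread between the clones of a gene, where a had an SD of 0.096 in GPC1 and 0.19 in gpc2. Whether the genes differ in a was not tested. The mid-parent deviation d was 0.033 (SE 0.041) for GPC1 and 0.032 (SE 0.038) for gpc2, less than the standard error of the fit in both genes. For gpc3, d was -0.068 (SE 0.035). Leaving out 1 array gave d of 0.0090 to 0.050 for GPC1, lowest without H99 array 1 and highest without H99 array 5, and of 0.016 to 0.044 for gpc2, lowest without H99 array 1 and highest without B73 array 2.

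These values take the reversed arrays as deposited, and whether their ratios had been turned to the forward direction could not be settled. With the reversed arrays of both inbreds turned, a was 0.086 for GPC1, 0.068 for gpc2 and 0.037 for gpc3, which corresponds to 1.13-fold, 1.10-fold and 1.05-fold between the inbreds in place of 1.32-fold, 1.24-fold and 1.08-fold. The sign of a of each gene stayed positive, but this turning could not have changed it. The forward arrays are the more numerous, and as deposited they had the larger a in each gene. It was 0.24 forward and 0.14 reversed for GPC1, 0.18 and 0.11 for gpc2, and 0.076 and 0.021 for gpc3. Once turned, the reversed arrays would oppose the forward ones in sign. With only the H99 arrays turned, d was -0.010 for GPC1 and -0.025 for gpc2, and with only the B73 arrays turned it was 0.10 for GPC1.

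Over the 19 clones, L2 was positive in 17 (9 of GPC1, 7 of gpc2, 1 of gpc3) and L1 was negative in 13 (7 of GPC1, 4 of gpc2, 2 of gpc3). The median over the 19 clones was 0.20 for L2, -0.15 for L1, 0.14 for a and 0.063 for d, beside medians over all tested clones of -0.0021, -0.014, 0.012 and 0.0040 in the same order of quantities. Positive a was found in 17 GAPDH clones, among them all 10 of GPC1, and in 54.2% of all tested clones. In 9 GAPDH clones, 5 of GPC1 and 4 of gpc2, every H99 array was positive and every B73 array negative, a pattern held by 1.49% of all tested clones. In 10 of the 19 all H99 arrays lay above all B73 arrays, against 5.25% of all tested clones.

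Counts past the threshold of the limma fit, an adjusted p of 0.05 after Benjamini-Hochberg adjustment over all tested clones, describe the same contrasts. For L2, 4 of 19 GAPDH clones passed, all of them positive, against 1.23% of all clones. For L1, 10 passed, 8 negative and 2 positive, against 41.7% of all clones. For a, 9 passed, all positive, against 20.3% of all clones, and for d, 4 passed, 3 positive and 1 negative, against 25.2%. No gpc3 clone was among them. Since the choice of the genes used these contrasts, nothing is read from the counts. The 4 calls for L2 were lost when H99 array 1, 2 or 3 was left out, the count for L1 was 6 without B73 array 3, and that for d was 2 without H99 array 1, 2 or 5 or B73 array 1, 2 or 3. With the reversed arrays of B73 or of both inbreds turned, 0 GAPDH clones passed for L2, L1, a or d. The share of all tested clones called in these settings is not given here, so these changes are not read as particular to GAPDH.

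**Figure D2:**
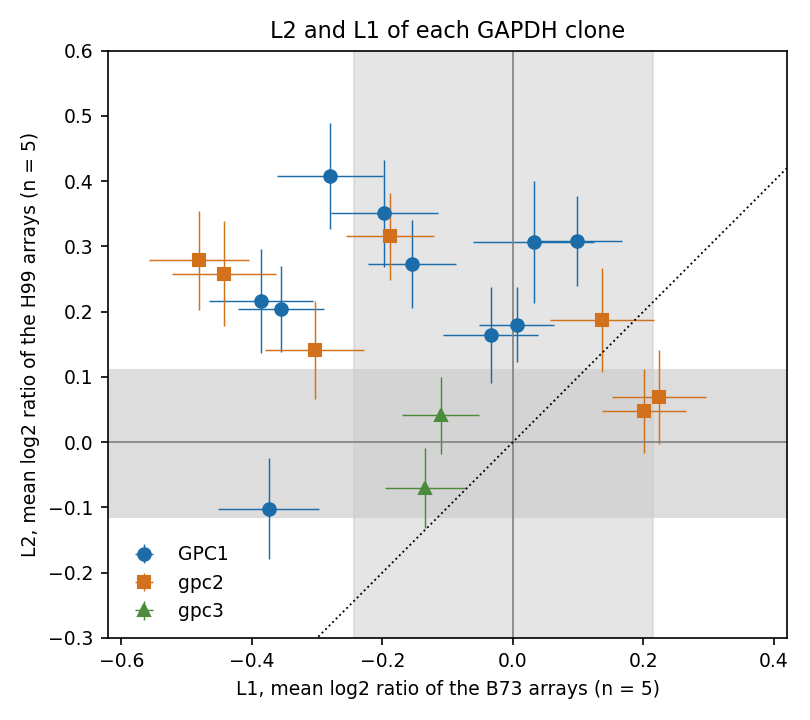
L2 against L1 for each of the 19 clones, coloured by gene, with error bars of ± 1 SE from limma; grey bands are the median ± 1 SD over all tested clones and the dotted line marks L2 equal to L1. The GPC1 clones lie above the dotted line at L2 of -0.10 to 0.41, and the gpc2 clones spread along L1 from -0.48 to 0.22.

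Clones of GPC1 differed in size rather than in the sign of a. GPC1 clone 4 (clones are numbered in row order of the array) had the largest a of the gene, 0.34 (SE 0.057). It measured 0.21 and 0.11 on the reversed and 0.73, 0.58 and 0.40 on the forward H99 arrays, against -0.19 and -0.26 on the reversed and -0.13, -0.29 and -0.53 on the forward B73 arrays. No H99 value of this clone fell below 0 and no B73 value rose above it.

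GPC1 clone 8 had the smallest a of the gene, 0.087 (SE 0.040). Its values were 0.092 and 0.090 on the reversed and 0.24, 0.34 and 0.14 on the forward H99 arrays, against -0.073 and 0.020 on the reversed and 0.049, 0.015 and 0.018 on the forward B73 arrays. The B73 arrays lay near 0 but still below every H99 array. The other 8 GPC1 clones had a between 0.099 and 0.30.

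GPC1 clone 6 was the only GPC1 clone with negative L2, at -0.10. Its L1 was -0.37 and its a, 0.14, was within the range of the other GPC1 clones. It was singled out after its values were seen.

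The clones of gpc2 fell further apart than those of GPC1. The SD between clones of L1 was 0.31 for gpc2 and 0.18 for GPC1, and that of a was 0.19 and 0.096. gpc2 clone 5 had the largest a of all 19 clones, 0.38 (SE 0.054). It measured 0.19 and 0.043 on the reversed and 0.46, 0.43 and 0.27 on the forward H99 arrays, against -0.30 and -0.25 on the reversed and -0.51, -0.75 and -0.58 on the forward B73 arrays. Every H99 array was positive and every B73 array negative.

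gpc2 clones 4 and 7 had a of the opposite sign, -0.077 (SE 0.051) and -0.077 (SE 0.045). gpc2 clone 4 measured 0.10 and 0.15 on the reversed and 0.29, 0.051 and -0.24 on the forward H99 arrays, against 0.20 and 0.057 on the reversed and 0.17, 0.25 and 0.44 on the forward B73 arrays. The 2 sets overlapped, with all B73 arrays positive.

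gpc2 clone 7 measured 0.16 and 0.26 on the reversed and -0.043, 0.061 and -0.19 on the forward H99 arrays, against 0.16 and 0.15 on the reversed and 0.21, 0.25 and 0.24 on the forward B73 arrays. Here too the B73 arrays were all positive, and the H99 arrays reached both above and below them. With gpc2 clone 1, whose a was 0.025, these made up 3 clones at L1 of 0.14 to 0.22, while gpc2 clones 2, 3, 5 and 6 had L1 of -0.48 to -0.19 and a of 0.22 to 0.38. This grouping was made after the values were seen and was not tested.

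The 2 gpc3 clones were both small. gpc3 clone 2 had the larger a, 0.076 (SE 0.042), and measured 0.022 and 0.034 on the reversed and 0.24, -0.036 and -0.053 on the forward H99 arrays, against -0.082 and -0.15 on the reversed and -0.21, 0.011 and -0.12 on the forward B73 arrays. gpc3 clone 1 had an a of 0.032 (SE 0.043) and measured -0.091 and -0.12 on the reversed and -0.23, 0.011 and 0.085 on the forward H99 arrays, against -0.080 and -0.020 on the reversed and -0.075, -0.25 and -0.25 on the forward B73 arrays. In both clones the H99 and B73 arrays overlapped, although the mean of the 2 did not.

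**Figure D3:**
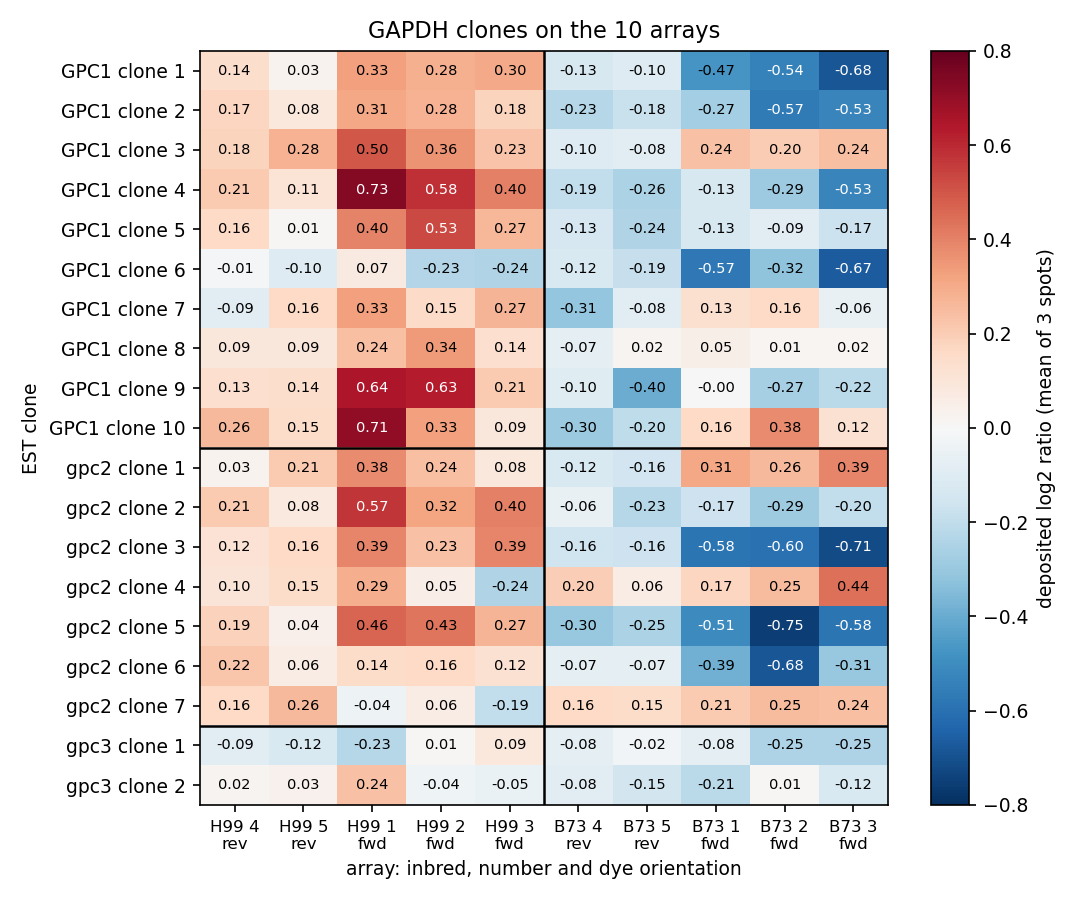
Log2 ratios of the 19 GAPDH clones (rows, grouped by gene) on the 10 arrays (columns, H99 left of B73, reversed left of forward within each), with the value written in each cell and the colour scale centred on 0. The forward B73 columns hold both the lowest and the highest B73 values of GPC1 and gpc2.

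The spots of 1 clone differed little. The SD over the 3 spots of a clone had a median of 0.062 over the 19 GAPDH clones, with a range of 0.026 to 0.094, and of 0.051 over all tested clones. The clones of GPC1 or of gpc2 therefore differed from one another by more than the spots of a clone did.

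No gene mean passed the test between dye orientations, while single clones did. For GPC1 the reversed minus the forward arrays differed by -0.20 within H99 (SE 0.099, reversed mean 0.11, forward mean 0.31; adjusted p = 0.25, limma) and by -0.010 within B73 (SE 0.099; adjusted p = 0.96, limma). For gpc2 the difference was -0.073 within H99 (adjusted p = 0.70, limma) and 0.080 within B73 (adjusted p = 0.59, limma). For gpc3 it was -0.042 within H99 (adjusted p = 0.83, limma) and 0.066 within B73 (adjusted p = 0.64, limma). Nor did any difference of these contrasts between H99 and B73 pass (limma; adjusted p = 0.37 for GPC1, 0.47 for gpc2 and 0.58 for gpc3). With 2 reversed arrays per inbred, a p that misses the threshold does not show that the orientations gave the same value.

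Among single clones, 8 of 19 differed between the orientations within B73, 5 higher and 3 lower on the reversed arrays, where 15.4% of all tested clones passed. They were 4 clones of GPC1 and 4 of gpc2. gpc2 clone 3 had the lowest p and was higher on the reversed arrays by 0.47 (SE 0.098; adjusted p = 0.0094, limma), and GPC1 clone 1 by 0.45 (SE 0.099; adjusted p = 0.011, limma). gpc2 clone 1 fell by 0.46 on the reversed arrays (SE 0.11; adjusted p = 0.014, limma). Leaving out the reversed B73 array 4 or 5 gave 0 or 1 such clones in place of 8. The number was 4 without B73 array 2 or 3 or without H99 array 2, 4 or 5. It was 2 with each clone's own variance, 1 after the row-order median described below was subtracted, and 0 after scaling to a common spread or quantile normalization. For these settings the share of all tested clones that passed is not given here, so their counts are not read as particular to GAPDH.

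Within H99 no GAPDH clone passed in limma, nor with each clone's own variance, where 4.31% of all tested clones did in limma. Scaling, quantile normalization or subtraction of the row-order median each gave 2 clones, and leaving out H99 array 3 or B73 array 3 gave 1. The difference between the H99 and the B73 contrasts passed for 3 GAPDH clones (GPC1 clone 1, gpc2 clones 3 and 5), against 3.92% of all tested clones. These calls went to 0 under scaling, quantile normalization or own variances and without H99 array 2, 3, 4 or 5 or B73 array 3, 4 or 5, and to 1 after subtraction of the row-order median. Here too the share of all tested clones is given for the main fit only, so the other counts are not read as particular to GAPDH.

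In the ratios as deposited, a had mostly the same sign in both orientations. Had the reversed arrays not been turned before deposit, its sign on them would be the opposite. The shared sign does not settle whether they were turned, since the genes were chosen by mean ratios that included the reversed arrays as deposited. On the reversed arrays a was positive in 17 of 19 clones, including all 10 of GPC1 (0.050 to 0.23) and 6 of 7 of gpc2 (-0.0011 to 0.20), with a median of 0.13 and an SD between clones of 0.071. On the forward arrays it was positive in 16 of 19, including all 10 of GPC1 (0.068 to 0.45) and 4 of 7 of gpc2 (-0.15 to 0.50), with a median of 0.19 and an SD of 0.20. Over all tested clones a was positive in 49.7% on the reversed and 54.4% on the forward arrays, with SDs of 0.096 and 0.16. The GAPDH clones thus lay closer to each other on the reversed than on the forward arrays, as did the clones of the whole array; whether the 2 shifts differ was not tested.

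The same was seen within each inbred. On the reversed H99 arrays the SD between the 19 clones was 0.084 and on the forward ones 0.20, and on the reversed B73 arrays it was 0.12 and on the forward ones 0.33. Over all tested clones these SDs were 0.14 and 0.16 for H99 and 0.20 and 0.29 for B73. On the reversed B73 arrays all 10 GPC1 clones were negative (-0.25 to -0.027), whereas on the forward ones 6 were negative and 4 positive (-0.57 to 0.23). Across the 19 clones the reversed and forward means correlated at r = 0.53 for H99 and 0.44 for B73, against 0.031 and 0.56 over all tested clones; these are descriptions across clones that share arrays and RNA.

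**Figure D4:**
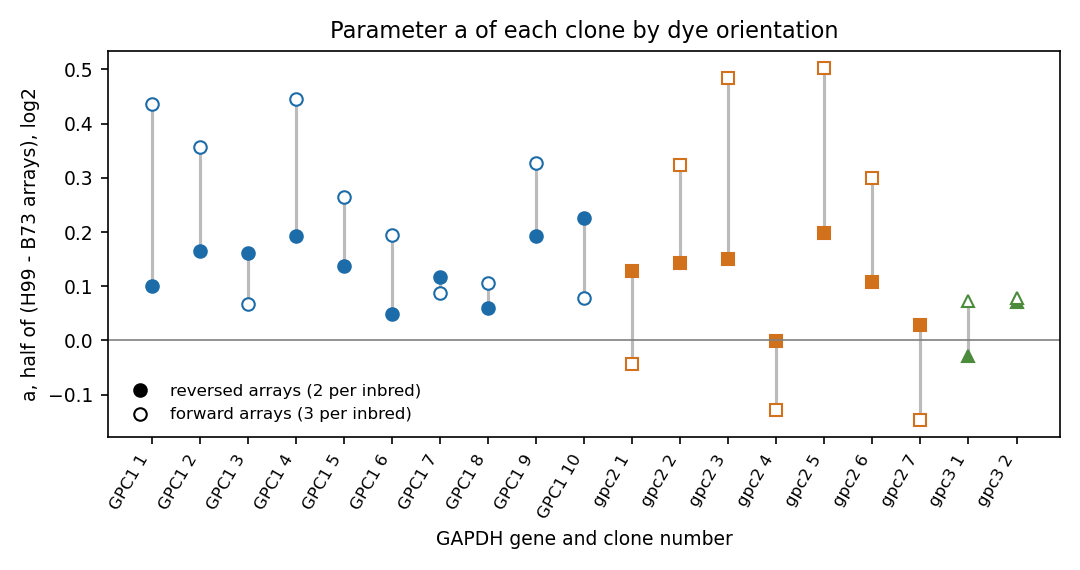
The parameter a (log2) of each of the 19 clones from the reversed arrays alone (filled, 2 per inbred) and from the forward arrays alone (open, 3 per inbred). All GPC1 clones are above 0 in both, and the gpc2 clones spread from -0.15 to 0.50 on the forward arrays but from -0.0011 to 0.20 on the reversed ones.

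The position of a clone in the row order of the array moved with its values. For each clone the median of the 6 nearest clones in row order (3 on each side, other genes or unnamed) was taken as a local value. L1 of the clones correlated with this local value at r = 0.91 over the 10 GPC1 clones, 0.90 over the 7 gpc2 clones and 0.69 over the 19, against 0.43 over all tested clones. For L2 the correlations were 0.71, 0.92 and 0.50, against 0.32. Next to the GPC1 clones the local L1 ran from -0.42 at clone 6 to 0.34 at clone 3. GPC1 clone 1 and gpc2 clone 3, which lie 4 positions apart, correlated at r = 0.99 over the 10 arrays. Clones far apart could be as alike, since GPC1 clone 2 and gpc2 clone 5, at positions 1397 and 2454, also correlated at r = 0.99. The part of row position in the clone values was not tested.

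**Figure D5:**
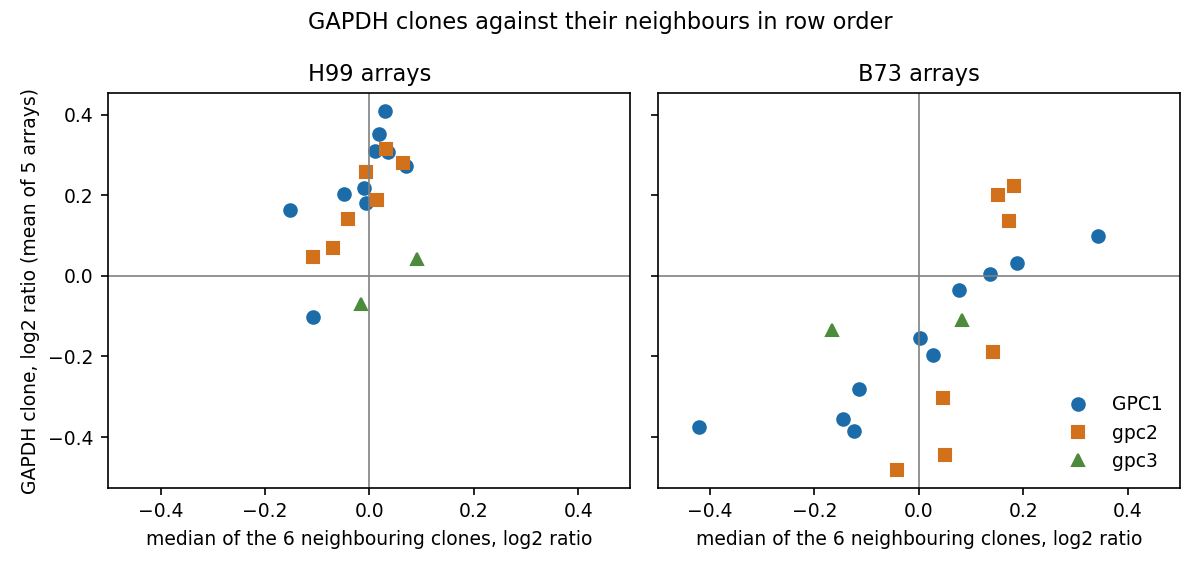
The value of each GAPDH clone against the median of its 6 neighbouring clones in row order (log2 ratios), for L2 on the H99 arrays (left) and L1 on the B73 arrays (right). Clones with lower neighbours tend to have lower L1, at r = 0.91 within GPC1, 0.90 within gpc2 and 0.69 over the 19 clones. The signs can differ, as in gpc2 clone 2, with an L1 of -0.19 beside neighbours at 0.14.

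After the local value was subtracted from every clone, the GPC1 clones came closer together in L1 but hardly in a. The SD between them of L1 was 0.088 after and 0.18 before the subtraction, and that of a was 0.088 and 0.096. L1 was then negative in 9 of 10 (-0.26 to 0.047) and L2 positive in 10 of 10. A positive a was held by 9 of 10 (-0.021 to 0.28), and by all 10 before the subtraction (0.087 to 0.34). GPC1 clone 6 was the exception in a. For gpc2, a was positive in 7 of 7 (0.049 to 0.38), and the SD of L1 was 0.23. gpc2 clones 1, 4 and 7 kept the 3 lowest values of a of that gene, 0.10, 0.049 and 0.053, and gpc2 clones 2, 3, 5 and 6 had 0.31, 0.38, 0.33 and 0.27. For gpc3 the gene mean of a was 0.014 after the subtraction. Of the 19 clones 14 then passed for a, against 19.9% of all tested clones. Since the choice of the genes used this contrast, nothing is read from that count either.

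The correlation between clones over the 10 arrays includes the difference between the inbreds by which the genes were chosen. All 45 pairs of GPC1 clones had a positive Pearson r, from 0.046 to 0.96 with a median of 0.68, and with the mean of each inbred subtracted 33 were positive and 12 negative, from -0.56 to 0.88 with a median of 0.35. The 21 pairs of gpc2 clones ran from -0.78 to 0.96 with a median of -0.037, 10 positive and 11 negative. The gpc3 pair had r = -0.38. Between genes the 70 pairs of a GPC1 and a gpc2 clone had a median r of 0.44. Pairs of clones of any 1 other named gene, 5725 in number, had a median r of 0.089. All clones share the same hybridisations, so these are descriptions of the arrays.

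The gene means were more alike than the clones. GPC1 and gpc2 correlated at r = 0.93 over the 10 arrays and at 0.57 with the inbred means subtracted. GPC1 and gpc3 had 0.86 and 0.40, and gpc2 and gpc3 had 0.84 and 0.25.

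Among the 107 other named genes with at least 2 clones, the 3 most like GPC1 by Pearson r over the 10 arrays were tif5A (a translation factor, r = 0.92), Ann7 (an annexin, r = 0.90) and LOC542610 (r = 0.88). For gpc2 they were tif5A (r = 0.93), tua4 (an alpha-tubulin, r = 0.89) and Ann7 (r = 0.88). For gpc3 they were MFS18 (r = 0.96), Ann7 (r = 0.95) and LOC100101510 (r = 0.93). tif5A had L2 of 0.095 and L1 of -0.13, and Ann7 had 0.071 and -0.071, smaller on both sides than GPC1. MFS18 had 0.089 and -0.37. Ann7 appeared for all 3 genes. As between clones, r over the 10 arrays includes the difference between the inbreds by which the GAPDH genes were chosen. For these neighbours no r with the inbred means subtracted is given, so likeness beyond that difference was not tested. With a rank correlation or a distance in place of Pearson's r, 3 and 3 of the 3 genes named for GPC1 stayed, 2 and 2 for gpc2, and 3 and 0 for gpc3.

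Of 39 symbols of other glycolysis and fermentation genes searched, 6 were on the array, with 16 clones. For a, 1 of these clones passed as positive and 5 as negative, against 20.3% of all tested clones. For L2, 0 passed as positive and 1 as negative (1.23% of all), for L1, 5 and 3 (41.7% of all), and for d, 4 and 4 (25.2% of all). Over the 6 gene means a was positive in 3 and had a median of -0.027. Of these 3, eno2 (1.7e-05, SE 0.040) and pdc3 (0.029, SE 0.055) were within 1 SE of 0. Beyond 1 SE, a was positive in ald1 and negative in eno1, adh1 and PK, so the genes did not share one sign of a.

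The gene means of the enolases eno1 and eno2, which act further down in glycolysis, lay near 0, but their clones differed in sign. A positive a was held by 3 of 5 eno1 clones and 3 of 4 eno2 clones, against 54.2% of all tested clones. eno2 (4 clones) had an L2 of 0.022 ± 0.11 and an L1 of 0.022 ± 0.075, and eno1 (5 clones) had an L2 of -0.044 ± 0.056 and an L1 of 0.062 ± 0.052 (SD, n = 5 arrays each). For eno2, a was 1.7e-05 (SE 0.040), and for eno1 it was -0.053 (SE 0.036).

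The fermentation gene adh1, an alcohol dehydrogenase (4 clones), had an L2 of -0.21 ± 0.11 and an L1 of 0.023 ± 0.069 (SD, n = 5 arrays each), with an a of -0.12 (SE 0.040), the sign opposite to that of the GAPDH genes as deposited. All 5 H99 arrays were negative, between -0.33 and -0.060. With the reversed H99 arrays turned, its L2 was -0.0042 and its a -0.013, and with both sets turned its a was 0.019. pdc3, a pyruvate decarboxylase, had 1 clone with an L2 of -0.088 ± 0.13 (n = 5 arrays) and an L1 of -0.15 ± 0.23 (SD, n = 4 arrays with a value), a difference smaller than the spread between arrays.

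ald1, an aldolase that makes the substrate of GAPDH, had 1 clone, with an L2 of -0.098 ± 0.093 and an L1 of -0.47 ± 0.25 (SD, n = 5 arrays each). Its a of 0.19 (SE 0.053) had the sign of the GAPDH genes, but L2 was negative. The single clone annotated PK, a symbol that does not settle the enzyme, had an L2 of 0.10 ± 0.081 and an L1 of 0.40 ± 0.13 (SD, n = 5 arrays each).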

How the data were processed

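The deposited values were log2 ratios of the 2 channels, 1 per spot, and per the design text the ratio is hybrid over inbred. Array medians within 0.001 of 0 show that the authors had centred them before deposit; how is not given in the sources used. Reversed arrays were used as deposited. Whether the authors had turned them could not be settled.

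Each successive 3 spots were averaged as 1 clone. Names came from the platform annotation, which can be old, with synonyms from RefSeq (assembly Zm-B73-REFERENCE-NAM-5.0), where 208 of 213 named genes were found; 811 clones carried 1 name and 4589 none. Clones with fewer than 3 values in an inbred, or without a value in 1 of the orientations, were left out (43), and 5357 were tested. limma 3.58.1 (R 4.3.3) was fitted over all of them, and over 4763 features after the clones of each named gene were averaged, with a mean per inbred or, for the orientation contrasts, per inbred and orientation. SDs are over arrays, and p-values were adjusted by Benjamini and Hochberg at 0.05. The arrays of a set were labelled from the same RNA preparation of each genotype, per the design text, so p-values measure technical spread, and the number of arrays limits the precision. In the fit tested on simulated data with 5357 clones, 55.2% of changes of 0.5 and 95.5% of changes of 1 between orientations within B73 were recovered, and 1.49% of changes of 0.25.

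The members and lists were chosen with earlier results of these data known. Values per array are given for the gene means, for the clones with the largest and smallest a of each gene and for clones whose a opposes their gene mean. Same-numbered H99 and B73 arrays correlated at -0.29 to 0.31 after group means were removed, so the numbers did not pair them. Alternatives covered the turning and weighting of orientations, scaling, spot medians, filters, row position, array weights, variance and left-out arrays and clones.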

Additional observations from a re-analysis of the deposited data

Results flagged for a closer look

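Opposite directions on every array of the 2 inbreds brought up the gene means of GPC1 and gpc2, with H99 minus B73 differences in the log2 ratio of 0.40 and 0.31. The same pattern held for GPC1 clones 1, 2, 4, 5 and 9, with differences of 0.60, 0.56, 0.69, 0.43 and 0.55, and for gpc2 clones 2, 3, 5 and 6, with differences of 0.50, 0.70, 0.76 and 0.45. In each of these all 5 H99 arrays were positive and all 5 B73 arrays negative. The difference was not tested, because the genes had been chosen by it. With the reversed arrays of both inbreds turned, it was 0.17 for GPC1 and 0.14 for gpc2.

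The reversed minus forward contrast differed between H99 and B73 in GPC1 clone 1 by -0.67 (adjusted p = 0.034, limma), in gpc2 clone 3 by -0.67 (adjusted p = 0.034, limma) and in gpc2 clone 5 by -0.61 (adjusted p = 0.043, limma). In all 3 the contrast was negative within H99 and positive within B73. None of the 3 passed after scaling, after quantile normalization, with own variances, or without H99 array 2, 3, 4 or 5 or B73 array 3, 4 or 5, and after subtraction of the row-order median 1 GAPDH clone passed. How many of all tested clones passed in those settings is not given here.

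GPC1 clone 8 on B73 array 4, at -0.073, stood apart from the other 4 B73 arrays by Dixon's criterion. It was 1 of 44 groups checked, and chance gives about 1 in 20.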

How the results depend on the processing

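Of 291 GAPDH gene means over the alternatives tried, 8 changed sign, all in d of GPC1 or gpc2 or L2 of gpc3. Of the 146 of L2, L1 and a of GPC1 and gpc2, 0 did, and among 267 of eno1, eno2 and adh1, 35 did. The 0 does not measure stability, because many of these alternatives could not change a sign. Both gene means were positive on every H99 array and negative on every B73 array. Leaving out an array, weighting the orientations equally or using 1 orientation alone therefore had a fixed outcome. Turning the reversed arrays of both inbreds could not change the sign of a of GPC1 or gpc2, because the more numerous forward arrays had the larger a. Of 134 counts of GAPDH clones, 72 stayed within 1.5 times, 49 were lower and 13 higher. The share of all tested clones called moved with the setting too. For L2 it was 3.32% after subtraction of the local row-order median, against 1.23% in the main fit. Under the other alternatives that share is not given here, so nothing about GAPDH is read from the counts below. adh1 had an a of 0.019 in place of -0.12 when the reversed arrays of both inbreds were turned. Turning the H99 reversed arrays gave gpc2 an L2 of 0.072, an a of 0.097 and a d of -0.025 and gpc3 an L2 of 0.017, with 0 GAPDH clones called for L2 and 1 for d. Turning those of B73 gave GPC1 an L1 of -0.028 and gpc3 an L1 of -0.056, an a of 0.021 and a d of -0.035. Turning both gave GPC1 an L1 of -0.028 and an a of 0.086, gpc2 an L2 of 0.072 and an a of 0.068, and gpc3 an L2 of 0.017, an L1 of -0.056 and a d of -0.019. With B73 or both turned, 0 clones were called for L2, L1, a or d. Weighting the orientations equally gave 10 clones for L2 and 7 for d; scaling gave 11 for L2, 6 for L1 and 2 for d, with 2 for orientation in H99, 0 in B73 and 0 for their difference; quantile normalization gave 11, 2, 2, 0 and 0 for L2, d and these 3 orientation contrasts. Spot medians gave 2 for L2. Array weights gave 11 for L2 and 10 for d. Each clone's own variance gave 0 for L2, 2 for d, 2 for orientation in B73 and 0 for the difference. Subtracting the local row-order median gave gpc2 an L1 of -0.22 and an a of 0.21, gpc3 an L2 of -0.052 and an a of 0.014, and counts of 7 for L2, 14 for a, 2 for d, 2 and 1 for orientation in H99 and B73 and 1 for the difference. The reversed arrays alone gave gpc3 an a of 0.021. Leaving out either gpc3 clone gave d of -0.10 and -0.035 and L2 of -0.070 and 0.041. Leaving out 1 array at a time gave counts of 9 to 10 for a, 2 to 6 for d, 6 to 10 for L1, 0 to 5 for L2, 0 to 8 for orientation in B73, 0 to 1 in H99 and 0 to 3 for the difference, and a of 0.17 to 0.21 for GPC1, 0.14 to 0.16 for gpc2 and 0.046 to 0.059 for gpc3. With a replicate block, a stayed at 0.20, 0.15 and 0.054 and the count for a at 9; 1 of 5 H99 arrays correlated best with its own number. Signal over background was not analysed here.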
